A study of Mus musculus with 9 samples.

Results

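ADAM and ADAMTS proteases are 2 related families of zinc metalloproteases. The 10 genes described here are Adam8, Adam12, Adam17, Adam19, Adamts1, Adamts2, Adamts4, Adamts5, Adamts9 and Adamts12. They were taken by name, with earlier results of these data known. Each was read through the probe sets that the array annotation gives to it alone. Of the 10 genes, 9 had such probe sets, 20 in all, among 18193 genes and 45101 probe sets in the series. No probe set here was given to Adamts2, an enzyme that trims procollagen, and it was not analysed. The brightest probe set of each gene over the 9 arrays gave its main value, and all 9 genes passed the filter on dim signals, on all 3 arrays of every line.

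ADAM proteases sit in the cell membrane and cut the outer parts of other membrane proteins free, among them growth factors, cytokines and receptors. ADAMTS proteases are secreted, bind the matrix through thrombospondin-type repeats and cut proteoglycans, procollagens and other matrix proteins. Both are made as precursors, many of which furin-type convertases activate, and Timp3 is an inhibitor of several of these proteases. In mammary tumours they are known from tumour cells and from the stroma.

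The arrays came from primary tumours of 3 mouse mammary carcinoma lines, called 67NR, 66cl4 and 4T1, which descend from 1 spontaneous tumour. As background, 67NR is known as a line that does not metastasise, and 66cl4 and 4T1 as lines that do. The series asks about epithelial to mesenchymal transition in metastasis. The labels name all cells with the suffix CMVLUC. Each mouse, a female BALB/c animal of 7 to 9 weeks, received 1000000 viable cells of 1 line in the right mammary gland, and the tumour was taken on day 15. Tumour areas were cut from sections by laser capture, and total RNA of 3 mice per line was put on 1 single-colour Affymetrix array each. Every line is a transplanted cell line in a host that also contributes blood vessels, immune cells and stroma, so a signal is that of the whole captured area.

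The values are log2 signals as the authors deposited them, and array medians ran from 5.51 to 5.58. Array controls for bacterial transcripts reached 4.83 to 5.08, and a signal at or below the highest of them on its array is called not above background. The epithelial label of the tissue held unevenly over 7 markers. Cdh1 (E-cadherin) and Krt7 were above background on all 4T1 arrays and on no 67NR or 66cl4 array. Krt18 was above it on all 66cl4 and 4T1 arrays and on 1 67NR array. Krt14 was above it on all 4T1 arrays, on 2 66cl4 arrays and on 1 67NR array. Epcam, Krt5 and Krt8 were above it on all 9 arrays. Krt8 had a mean of 13.01 in 66cl4 and 6.74 in 67NR. Krt5 means were 5.32 in 67NR, 5.39 in 66cl4 and 5.13 in 4T1. The numbers in the array file names were all higher for 67NR than for the other lines. The mean signal of the spiked hybridization controls was 10.87 to 11.47 on 67NR, 10.64 to 11.10 on 66cl4 and 10.30 to 10.72 on 4T1 arrays. Each was added as a covariate in further fits. File numbers separate 67NR from the other lines, and the control signal partly follows the line. In comparisons with 67NR such fits cannot tell what these differences contribute apart from the line.

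Upstream windows are shown for 3 genes that were lower in 66cl4 than in both other lines, those of this pattern with a window available. The windows come from RefSeq on assembly GRCm38.p6, a C57BL/6J genome. They hold 250 bases before and 50 bases after an annotated start, read along the gene. The table held windows for 7 of the 10 genes and none for Adam12, Adamts4 or Adamts5. Capitals mark matches on either strand to any of 4 motifs. The AP-1 motif was searched as TGANTCA and the GC box as GGGCGG. The TATA box was searched as TATAAA. The E-box was searched as CACGTG. No 2 of these matches overlapped in the windows shown. The Adam19 window is 1 of 3 annotated starts of that gene and was chosen because it is the one with an AP-1 match. Of its other windows, that at 46054252 held 1 match, an E-box, and that at 46127654 held 0 matches. Adam19 lies on the plus strand of chr11:46055734-46056033, Adamts9 on the minus strand of chr6:92943485-92943784 and Adamts12 on the plus strand of chr15:11064523-11064822.
Adam19: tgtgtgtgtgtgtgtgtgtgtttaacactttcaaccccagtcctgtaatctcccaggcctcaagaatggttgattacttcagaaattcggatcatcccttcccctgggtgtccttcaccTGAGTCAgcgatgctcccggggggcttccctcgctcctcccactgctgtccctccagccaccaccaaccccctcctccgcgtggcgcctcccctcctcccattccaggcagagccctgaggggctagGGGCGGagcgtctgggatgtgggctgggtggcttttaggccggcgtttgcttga
Adamts9: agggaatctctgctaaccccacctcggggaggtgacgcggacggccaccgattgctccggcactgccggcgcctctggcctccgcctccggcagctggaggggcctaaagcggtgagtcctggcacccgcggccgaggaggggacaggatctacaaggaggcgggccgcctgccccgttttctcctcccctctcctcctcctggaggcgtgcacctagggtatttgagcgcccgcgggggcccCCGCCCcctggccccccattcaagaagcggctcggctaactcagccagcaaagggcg
Adamts12: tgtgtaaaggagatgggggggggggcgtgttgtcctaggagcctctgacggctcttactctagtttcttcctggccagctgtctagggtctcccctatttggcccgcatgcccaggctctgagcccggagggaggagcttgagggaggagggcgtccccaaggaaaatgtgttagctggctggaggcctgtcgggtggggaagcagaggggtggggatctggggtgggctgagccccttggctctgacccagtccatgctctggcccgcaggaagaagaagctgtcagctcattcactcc
The Adam19 window held an AP-1 match beginning 131 bases before the start and a GC box beginning 4 bases before it. Because the window was chosen for its AP-1 match, that match cannot be set against the share over all windows. The Adamts9 window held 1 GC box, on the other strand, 7 bases before the start, and the Adamts12 window held none of the motifs. Over all 32851 windows of the table, 7.81% held an AP-1 match, 35.7% a GC box, 13.6% a TATA box and 7.15% an E-box. These are matches of letters, not sites of binding.

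The 9 measured genes followed 3 patterns over the lines. Adam12, Adam19, Adamts4, Adamts9 and Adamts12 were lower in 66cl4 tumours than in both 67NR and 4T1 tumours. Adamts5 went the other way and was higher in 66cl4 than in both. Adam8, Adam17 and Adamts1 did not pass the test in any pair of lines. All adjusted p-values in the report are Benjamini-Hochberg values of limma's moderated test over 13409 genes, with 3 mice per line, called under 0.05. Lower in 66cl4 than in both other lines were 5 of 9 genes, against 7.00% of all genes tested. Higher in 66cl4 than in both was 1 of 9, against 10.9%. Since the genes were chosen with earlier results of these data known, these shares describe them and do not test the family. Because captured areas hold many cell types, fewer cells of a type and less RNA per cell cannot be told apart in any of these values. An F-test over the lines was passed by 6 of 9 genes, against 56.6% of all genes.

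**Figure D1:**
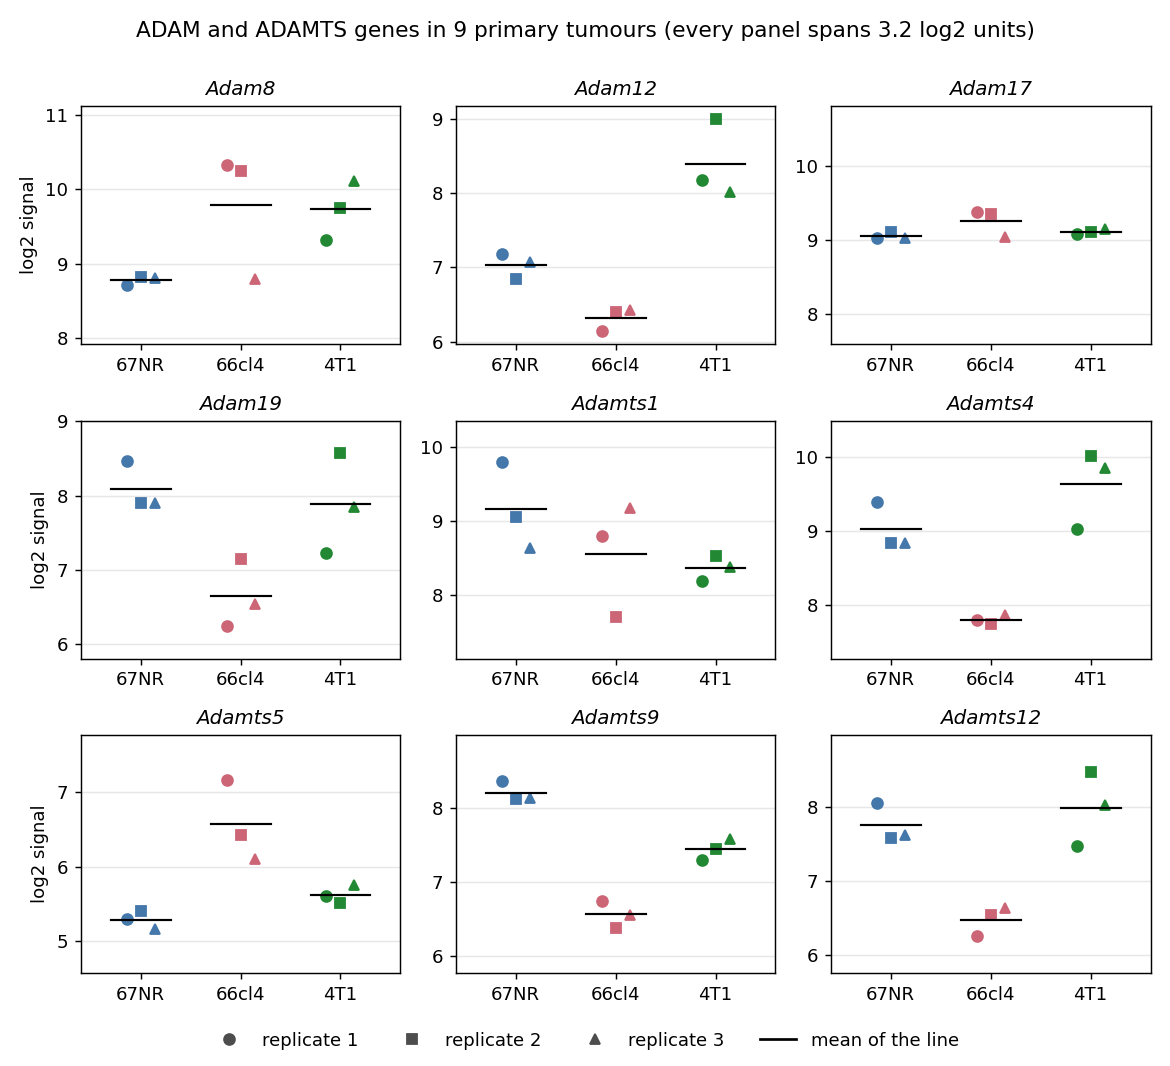
Log2 signal of the main probe set of each of the 9 measured genes (vertical axis) in each array, by line (horizontal axis). Symbols stand for the replicate number of the label and bars for the mean of the line. The 66cl4 values lie below those of both other lines for Adam12, Adam19, Adamts4, Adamts9 and Adamts12 and above them for Adamts5.

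Among the membrane proteases, Adam12 (meltrin alpha) releases growth factors such as heparin-binding EGF. Its log2 signals were 7.18, 6.84 and 7.08 in 67NR, 6.14, 6.39 and 6.43 in 66cl4 and 8.18, 9.00 and 8.02 in 4T1 tumours. The 3 lines did not overlap, with 4T1 highest, 67NR next and 66cl4 lowest. Adam12 was higher in 4T1 than in 66cl4 by 2.08 ± 0.23 on the log2 scale (SE), or 4.22-fold (adjusted p = 8.49e-05). It was also higher in 4T1 than in 67NR, by 1.36 ± 0.23 (adjusted p = 0.00114). Of the 9 genes it was the one higher in 4T1 than in both other lines, a pattern that 10.2% of all genes showed. The difference between 66cl4 and 67NR, -0.71 ± 0.23 (adjusted p = 0.0348), was near the threshold. It did not pass without 67NR replicate 1 (-0.64, adjusted p = 0.107), 67NR replicate 3 (-0.69, 0.0908), 66cl4 replicate 1 (-0.62, 0.108), 66cl4 replicate 2 (-0.75, 0.0676) or 66cl4 replicate 3 (-0.77, 0.0586). With the array file number as a covariate it was -0.31 (adjusted p = 0.382), with the hybridization controls -0.51 (0.161) and with the mean of both probe sets -0.57 (0.128). Without Adam12, 4 genes remain lower in 66cl4 than in both other lines in the main fit. Calls of Adam19 and Adamts9 in this pattern also ended under alternatives given below.

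Adam19 (meltrin beta), which releases neuregulins, had log2 signals of 8.47, 7.91 and 7.90 in 67NR, 6.25, 7.15 and 6.54 in 66cl4 and 7.23, 8.57 and 7.85 in 4T1 tumours. The 66cl4 arrays were all below the others, by a narrow gap to the lowest 4T1 array, and 67NR and 4T1 overlapped. Adam19 was lower in 66cl4 than in 67NR by -1.45 ± 0.34, or 2.73-fold (adjusted p = 0.00818). It was higher in 4T1 than in 66cl4 by 1.24 ± 0.34 (adjusted p = 0.0151), a call that ended without 66cl4 replicate 1 (1.04, adjusted p = 0.0583). With the array file number as a covariate the difference from 67NR was -1.15 (adjusted p = 0.0972). Between 4T1 and 67NR the difference was -0.21, with a 95% interval of -0.97 to 0.55.

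Adam8 (CD156), a protease best known from myeloid cells, had log2 signals of 8.71, 8.82 and 8.80 in 67NR tumours and 9.32, 9.76 and 10.12 in 4T1 tumours. In 66cl4 tumours the values were 10.33, 10.24 and 8.79. Replicate 3 of 66cl4 thus lay among the 67NR arrays and the other two above all 4T1 arrays. The differences from 67NR were 0.95 ± 0.36 in 4T1 (adjusted p = 0.0633) and 1.01 ± 0.36 in 66cl4 (adjusted p = 0.0553). Without 66cl4 replicate 3 both passed, at 0.95 (adjusted p = 0.00329) and 1.51 (adjusted p = 0.000794), the first because the estimate of the spread is shared. The difference of 4T1 from 67NR also passed without 4T1 replicate 1 (1.16, adjusted p = 0.0468) and in a fit of these 2 lines alone (0.95, adjusted p = 0.0068). That of 66cl4 from 67NR also passed with arrays centred on their medians (1.04, adjusted p = 0.048). The other 17 and 18 alternatives for these differences did not pass. The difference of 4T1 from 66cl4 was -0.06, with a 95% interval of -0.88 to 0.76.

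Adam17, the enzyme that releases tumour necrosis factor, was even over the lines. Its log2 signals were 9.03, 9.11 and 9.03 in 67NR, 9.38, 9.35 and 9.04 in 66cl4 and 9.08, 9.11 and 9.15 in 4T1 tumours, and all lines overlapped. The 95% intervals of its log2 differences were -0.05 to 0.44 for 66cl4 against 67NR, -0.19 to 0.30 for 4T1 against 67NR and -0.39 to 0.11 for 4T1 against 66cl4. These intervals bound any difference of this probe set below 2-fold. Its 3 probe sets gave differences of 0.20 to 0.30 for 66cl4 against 67NR, and none passed the test in any comparison.

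Among the secreted proteases, Adamts4 is an aggrecanase that also cuts versican. Its log2 signals were 9.40, 8.83 and 8.84 in 67NR, 7.80, 7.75 and 7.87 in 66cl4 and 9.03, 10.02 and 9.84 in 4T1 tumours. The 66cl4 arrays lay close together and below all others. Adamts4 was lower in 66cl4 than in 67NR by -1.22 ± 0.24, or 2.33-fold (adjusted p = 0.00371), and higher in 4T1 than in 66cl4 by 1.82 ± 0.24, or 3.54-fold (adjusted p = 0.000293). Between 4T1 and 67NR it differed by 0.61 ± 0.24 (adjusted p = 0.0764). That difference passed without 4T1 replicate 1 (0.91, adjusted p = 0.00348) and without 67NR replicate 1 (0.79, adjusted p = 0.0403).

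Adamts9, which cuts versican and aggrecan, separated all 3 lines. It had log2 signals of 8.37, 8.11 and 8.14 in 67NR, 6.75, 6.39 and 6.56 in 66cl4 and 7.30, 7.45 and 7.58 in 4T1 tumours. Its order was 67NR, 4T1, 66cl4, and no neighbours in it overlapped. Adamts9 was lower in 66cl4 than in 67NR by -1.64 ± 0.13, or 3.12-fold (adjusted p = 1.51e-05), and lower in 4T1 than in 67NR by -0.76 ± 0.13 (adjusted p = 0.0012). It was higher in 4T1 than in 66cl4 by 0.88 ± 0.13 (adjusted p = 0.000496), which did not pass with the mean of its probe sets (0.68, adjusted p = 0.0604).

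Adamts12, known to cut the cartilage matrix protein COMP, had log2 signals of 8.05, 7.59 and 7.62 in 67NR, 6.26, 6.54 and 6.64 in 66cl4 and 7.47, 8.47 and 8.03 in 4T1 tumours. The 66cl4 arrays were below all others, and 67NR and 4T1 overlapped. Adamts12 was lower in 66cl4 than in 67NR by -1.27 ± 0.24, or 2.41-fold (adjusted p = 0.00239), and higher in 4T1 than in 66cl4 by 1.51 ± 0.24, or 2.85-fold (adjusted p = 0.000734). Between 4T1 and 67NR it differed by 0.24, with a 95% interval of -0.29 to 0.77.

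Adamts5, the aggrecanase that in mice accounts for much of cartilage aggrecan loss, was the gene with the opposite pattern. It had log2 signals of 5.29, 5.40 and 5.17 in 67NR, 7.17, 6.43 and 6.10 in 66cl4 and 5.60, 5.52 and 5.76 in 4T1 tumours. The 66cl4 arrays were above all others, with replicate 1 the highest. Adamts5 was higher in 66cl4 than in 67NR by 1.28 ± 0.23, or 2.43-fold (adjusted p = 0.00187), and lower in 4T1 than in 66cl4 by -0.94 ± 0.23 (adjusted p = 0.00846). The 67NR signals exceeded the highest background control of their arrays by 0.09 to 0.57. On a dimmer probe set, not above background on any 67NR array, it was at least 2.97-fold higher in 66cl4 (adjusted p = 0.000615 over all probe sets). On a still dimmer tested probe set, also not above background on any 67NR array, the bound was only 1.21-fold (adjusted p = 0.0472 over all probe sets).

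Adamts1, which cuts versican and is made by endothelial cells among others, was uneven within lines. Its log2 signals were 9.79, 9.05 and 8.64 in 67NR, 8.79, 7.71 and 9.17 in 66cl4 and 8.19, 8.53 and 8.39 in 4T1 tumours. All 67NR arrays were above all 4T1 arrays, while 66cl4 overlapped with both. It differed by -0.79 ± 0.37 between 4T1 and 67NR (adjusted p = 0.122) and by -0.60 ± 0.37 between 66cl4 and 67NR (adjusted p = 0.242). The first passed without 66cl4 replicate 2 (adjusted p = 0.0433), an array of neither line, because the spread is shared.

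By comparison, 66cl4 against 67NR tumours gave 5 genes lower and 1 higher of 9, where 16.0% of all genes were lower and 20.0% higher (36.1% in all). The arrays of these lines did not overlap for 6 of 9, against 52.5% of all genes. The median log2 difference of the 9 genes was -0.71, against 0.01 over all genes. For 4T1 against 66cl4 tumours 5 were higher and 1 lower, where 17.9% of all genes were higher and 23.4% lower (41.3% in all), with a median of 0.88 against -0.03. Their arrays did not overlap for 6 of 9, against 50.9%. For 4T1 against 67NR tumours 1 was higher and 1 lower, where 19.4% were higher and 20.5% lower (39.9% in all), with a median of 0.24 against -0.03. Their arrays did not overlap for 5 of 9, against 49.7%. Any 2 of the comparisons share a line, so their counts are not independent.

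**Figure D2:**
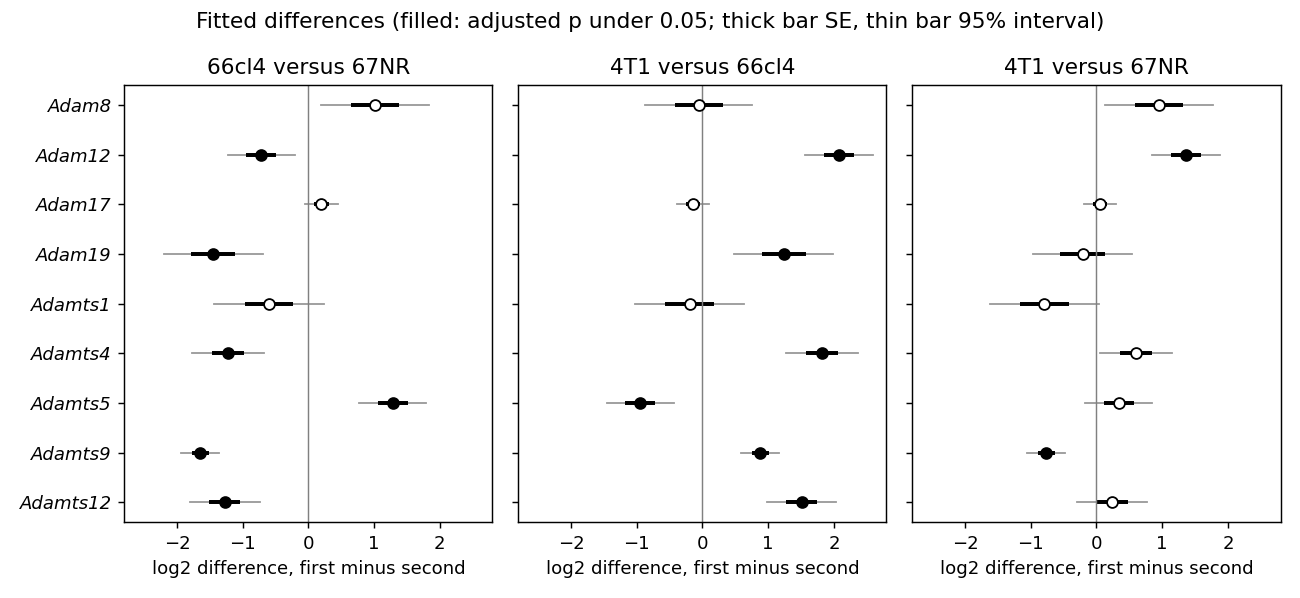
Log2 differences (horizontal axis, first line minus second) of the 9 measured genes in each pair of lines. Points are fitted differences, thick bars the SE, thin bars the 95% interval, and filled points have an adjusted p under 0.05. In 66cl4 against 67NR 5 genes are filled on the left and Adamts5 on the right.

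Other probe sets of the genes mostly went the same way. Of the 20 probe sets 18 passed the filter, and 6 genes had more than 1 of these. In 66cl4 against 67NR the probe sets of each gene agreed in sign, and 11 of 18 were called in a fit over 28223 probe sets, 3 higher and 8 lower, where 27.8% of all probe sets were called. All 3 Adamts9 probe sets were lower, by -2.04 to -0.79, both Adam19 probe sets by -1.45 and -1.34, and all 3 Adamts5 probe sets were higher, by 0.67 to 1.80. The dimmer probe sets of Adam12 (-0.44, adjusted p = 0.42) and Adamts4 (-0.67, adjusted p = 0.159) did not pass. In 4T1 against 66cl4, 8 were higher and 3 lower, where 33.2% of all probe sets were called. Here the dimmer Adamts9 probe sets did not pass, at 0.12 (adjusted p = 0.766) and 1.04 (adjusted p = 0.146). In 4T1 against 67NR, 3 were called, both of Adam12 and 1 of Adamts9, where 32.8% of all probe sets were called. The 2 probe sets that failed the filter, 1 of Adamts5 and 1 of Adamts12, were not above background on any array.

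**Figure D3:**
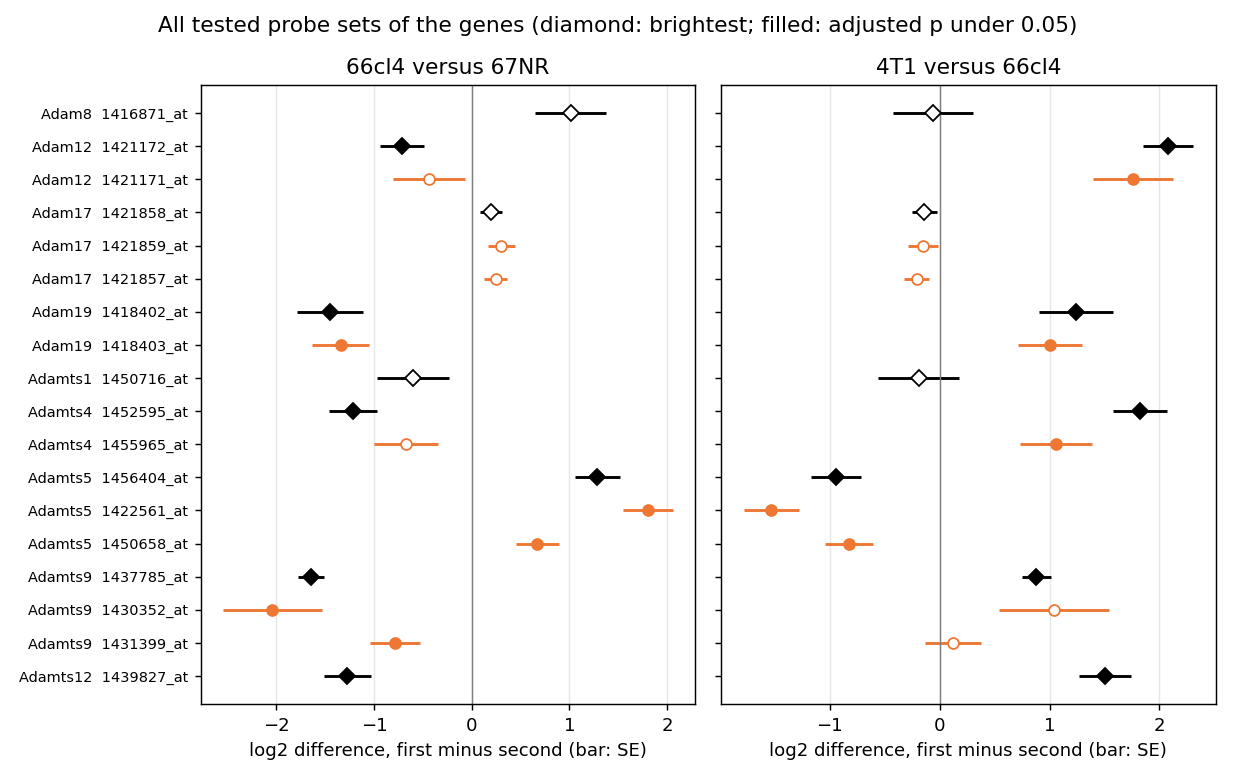
Log2 differences (horizontal axis, first line minus second, bars SE) of the 18 tested probe sets, by gene and probe set name, for 66cl4 against 67NR and 4T1 against 66cl4. Diamonds are the brightest probe set of each gene, circles the others, and filled symbols have an adjusted p under 0.05 over all probe sets. Probe sets of 1 gene lie on the same side of 0 in both panels.

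Genes whose levels ran most like a member were found by the root mean square distance of centred log2 values over the 9 arrays, a description with no test. Adamts4 and Adamts12 were each the second nearest of the other, at 0.20, and Tmem140 was the nearest of both (0.20 and 0.16). Nearest to Adamts9 were Chst15 (0.14), Irx1 (0.15) and Kdr, the endothelial VEGF receptor (0.16). Nearest to Adam12 were Tmem98 (0.13), Pmvk (0.18) and Cd40 (0.23), to Adam19 Mefv (0.23), Ecscr (0.24) and Dram1 (0.27), and to Adamts5 Klhdc8a (0.17), Abhd17c (0.20) and Zfp93 (0.21). The 3 arrays of a line share their tumour line, so the 9 arrays are not independent points.

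The counts of inhibitors, partners, substrates and relatives given next stand against the 36.1% of all genes called in 66cl4 against 67NR, 39.9% in 4T1 against 67NR and 41.3% in 4T1 against 66cl4. Nothing particular to a list is read from them. Of 5 inhibitor genes 4 were tested, and Timp4 was not above background on any array. In 66cl4 against 67NR tumours Timp3 was lower by -2.60 ± 0.54 (adjusted p = 0.00454) and Reck, a membrane-bound inhibitor, was higher by 1.59 ± 0.20 (adjusted p = 0.000265). Timp3 had log2 signals of 10.86, 9.82 and 9.27 in 67NR, 7.25, 7.34 and 7.58 in 66cl4 and 7.89, 10.03 and 9.82 in 4T1 tumours. Its 66cl4 arrays were below all others, and 4T1 replicate 1 stood apart from the other 4T1 arrays. In 4T1 against 66cl4 tumours Timp3 (1.86) and Timp1 (0.99) were higher and Reck (-1.74) and Timp2 (-0.80) lower. In 4T1 against 67NR tumours Timp1 was higher by 1.42 ± 0.33 (adjusted p = 0.00696) and Timp2 lower by -1.01 ± 0.14 (adjusted p = 0.000296).

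Of 9 tested genes that activate or assist the proteases, 4 fell and 0 rose in 66cl4 relative to 67NR tumours, with 5 not called and a median of 0.00. Furin is a convertase that removes the prodomain of many of these proteases. Its log2 signals were 8.78, 8.78 and 8.68 in 67NR, 8.08, 8.30 and 8.03 in 66cl4 and 9.27, 10.00 and 9.67 in 4T1 tumours. No lines overlapped, and the order 4T1, 67NR, 66cl4 was that of Adam12. Furin was lower in 66cl4 than in 67NR by -0.61 ± 0.17 (adjusted p = 0.0186) and higher in 4T1 than in 67NR by 0.90 ± 0.17 (adjusted p = 0.00216). The convertase gene Pcsk5 was at least 6.27-fold higher in 4T1 than in 67NR tumours, where it was not above background, and Pcsk6 was lower in 66cl4 than in 67NR by -0.67. Fbln1, a matrix protein that assists Adamts1, was lower than in 67NR by -2.60 in 66cl4 and by -1.89 in 4T1 tumours. Over the list, 3 of 9 were higher and 1 lower in 4T1 against 67NR, and 5 higher and 1 lower in 4T1 against 66cl4.

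Substrates in the matrix went both ways. Of 8 tested proteoglycan and matrix substrate genes, 3 were higher and 2 lower in 66cl4 than in 67NR, 3 and 2 in 4T1 than in 67NR, and 2 and 2 in 4T1 than in 66cl4. Comp, the substrate of Adamts12, was at least 2.04-fold higher in 66cl4 than in 67NR, where it was not above background. Thbs1 (thrombospondin) was higher in 66cl4 than in 67NR by 2.79 ± 0.26 (adjusted p = 4.8e-05), and the basement membrane gene Nid1 was lower by -2.19 ± 0.19 (adjusted p = 2.8e-05). Bgn (biglycan) was higher in 4T1 than in 66cl4 by 2.47 ± 0.41 (adjusted p = 0.00101). Of 6 fibrillar procollagen genes, substrates of the unmeasured Adamts2, 5 were higher and 0 lower in 4T1 than in 67NR, 3 and 0 in 66cl4 than in 67NR, and 4 and 0 in 4T1 than in 66cl4. Col1a1 rose by 3.93 ± 0.42 in 4T1 and by 1.34 ± 0.42 in 66cl4 over 67NR.

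Of 14 tested substrates of Adam17, 1 was higher, 6 lower and 7 not called in 66cl4 against 67NR. The higher and lower counts were 5 and 4 in 4T1 against 67NR and 8 and 2 in 4T1 against 66cl4. The receptor genes Tnfrsf1a and Mertk passed in no pair of lines. The adhesion gene Vcam1 was lower in 66cl4 than in 67NR by -4.07 ± 0.39 (adjusted p = 5.43e-05) and the chemokine gene Cx3cl1 by -1.77 ± 0.18 (adjusted p = 6.79e-05). Ereg, the growth factor epiregulin, was at least 19.1-fold lower in 66cl4 and at least 18.3-fold lower in 4T1 than in 67NR tumours, not above background in either. Notch1 was lower in 66cl4 than in 67NR by -1.22 ± 0.12 and higher in 4T1 than in 66cl4 by 0.89 ± 0.12. These are transcript levels, and shedding was not measured.

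Among relatives, Adamdec1, a soluble ADAM-like protease, was also low in 66cl4. It was at least 11.2-fold lower in 66cl4 than in 67NR and at least 14.5-fold lower than in 4T1 tumours, not above background on any 66cl4 array. Adam10, the other main sheddase, was lower in 66cl4 than in 67NR by -0.54 ± 0.13 (adjusted p = 0.0106), while Adam15 was higher by 0.55 ± 0.11 (adjusted p = 0.00416). Of 6 tested relatives with the protease motif, 1 was higher and 2 lower in 66cl4 than in 67NR, 0 and 1 in 4T1 than in 67NR, and 3 and 1 in 4T1 than in 66cl4. Of 5 other ADAMTS genes tested, the counts were 0 and 2, 1 and 1, and 3 and 1 in the same order. Adamts7, a relative of Adamts12 that also cuts COMP, had the order 67NR, 66cl4, 4T1, with means of 8.95, 7.75 and 6.26. Adamts8 was higher in 4T1 than in 67NR by 1.18 ± 0.23 (adjusted p = 0.00248). Of 5 tested ADAMTS-like genes, which lack the protease domain, 0 were higher and 2 lower in 66cl4 than in 67NR, 0 and 1 in 4T1 than in 67NR, and 1 and 1 in 4T1 than in 66cl4. Adamtsl3 was lower in 66cl4 than in 67NR by -3.44 ± 0.25 (adjusted p = 8.53e-06) and Adamtsl4 by -2.18 ± 0.23 (adjusted p = 8.58e-05). The 2 tested ADAM genes without the protease motif, Adam11 and Adam23, passed no test.

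**Figure D4:**
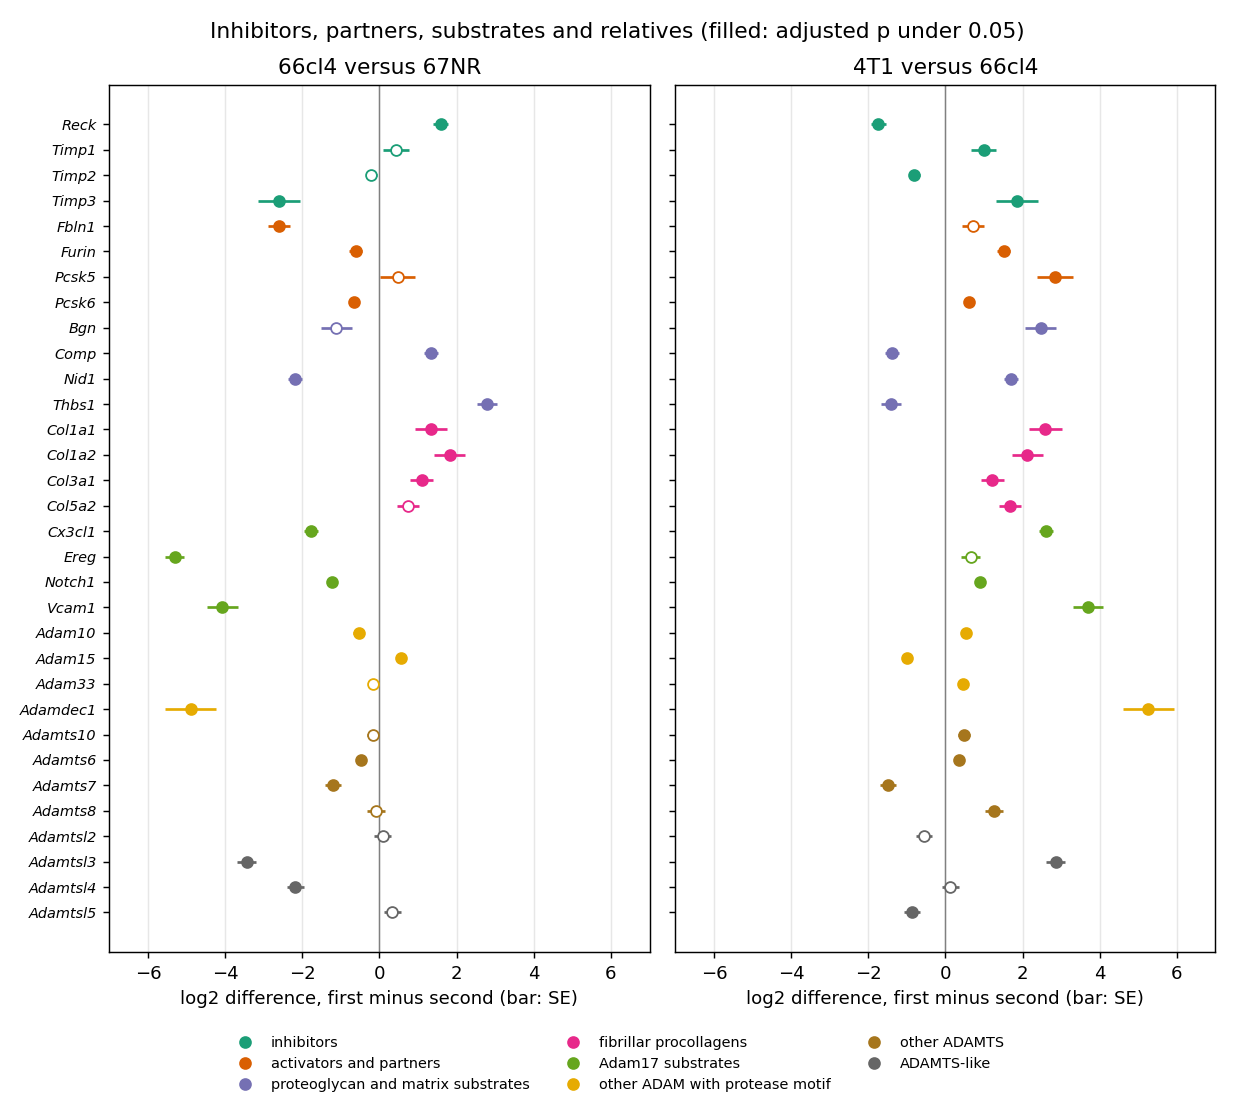
Log2 differences (horizontal axis, first line minus second, bars SE) of inhibitors, activators, substrates and relatives of the proteases, up to 4 per list with the smallest F-test p. Colours mark the lists and filled points have an adjusted p under 0.05. Timp3, Furin, Nid1, Cx3cl1, Vcam1, Adam10, Adamdec1 and Adamtsl3 lie left of 0 in 66cl4 against 67NR and right of it in 4T1 against 66cl4, while Reck, Comp, Thbs1 and Adam15 lie on the opposite sides.

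Most markers of endothelial cells, of pericytes and smooth muscle, and of T cells were low in 66cl4 relative to 67NR, as were those of mast cells, while most macrophage, neutrophil and fibroblast markers were not. The marker counts stand against the 36.1% of all genes called in 66cl4 against 67NR, 39.9% in 4T1 against 67NR and 41.3% in 4T1 against 66cl4. Endothelial markers were lower in 66cl4 than in 67NR for 7 of 8 and higher for 1, and in 4T1 than in 66cl4 they were higher for 4 of 8 and lower for 0. They were also lower in 4T1 than in 67NR for 6 of 8 and higher for 1. Their mean log2 signal was 8.30 to 8.64 on 67NR, 6.80 to 7.09 on 66cl4 and 7.38 to 7.48 on 4T1 arrays. The lines did not overlap in it, though 4 of 8 markers were not called in 4T1 against 66cl4. Pericyte and smooth muscle markers were lower in 66cl4 than in 67NR for 7 of 8 and higher for 0, with means of 9.06 to 9.13, 7.23 to 7.64 and 7.50 to 7.92. They were also lower in 4T1 than in 67NR for 6 of 8 and higher for 1. In 4T1 than in 66cl4 they were higher for 2 of 8 and lower for 1. T cell markers were lower in 66cl4 than in 67NR for 6 of 6, with means of 6.99 to 7.66, 5.51 to 6.09 and 6.47 to 7.16. They were lower in 4T1 than in 67NR for 1 of 6 and higher for 0. In 4T1 than in 66cl4 they were higher for 3 of 6 and lower for 0. Of 8 macrophage and monocyte markers, 4 rose and 1 fell in 66cl4 relative to 67NR, with means of 10.55 to 10.75, 11.04 to 11.45 and 9.18 to 9.73. The order of these list means was 66cl4, 67NR, 4T1. Macrophage and monocyte markers were lower in 4T1 than in 67NR for 7 of 8 and higher for 0, with the same counts in 4T1 against 66cl4. Of 6 neutrophil markers 0 differed between 66cl4 and 67NR, and 2 rose in 4T1 relative to 67NR, with means of 6.81 to 7.29, 6.50 to 7.28 and 7.76 to 8.27. Of 8 fibroblast markers 1 rose and 2 fell in 66cl4 relative to 67NR, 2 rose and 4 fell in 4T1 relative to 67NR, and 2 rose and 2 fell in 4T1 relative to 66cl4. The list means overlapped over the lines (7.78 to 8.14, 7.82 to 8.04 and 7.45 to 8.33), over markers that went opposite ways. In 4T1 relative to 67NR Lum differed by 3.63, Dpt by -2.76 and Pdgfra by -1.65. No marker of these lists was below background on all 9 arrays. The part of these cells in the protease results was not tested.

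**Figure D5:**
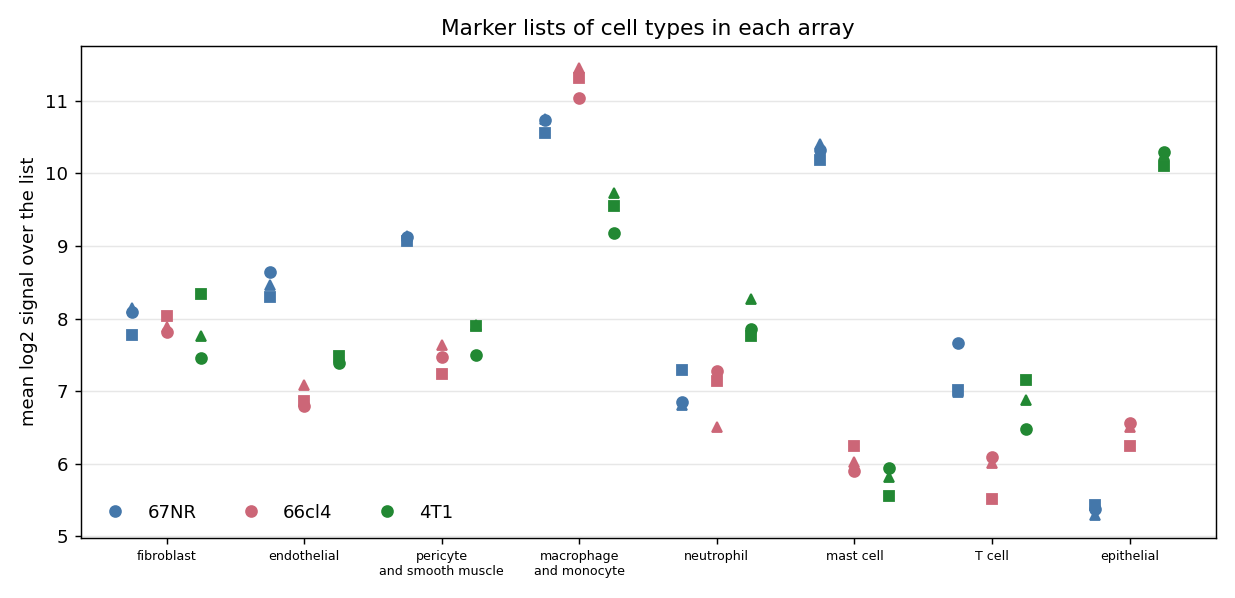
Mean log2 signal over each marker list (vertical axis) in each array, by cell type (horizontal axis). Colours mark the line and symbols the replicate number of the label (circle 1, square 2, triangle 3). Endothelial markers lie lowest on the 66cl4 arrays and macrophage markers highest there.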

How the data were processed

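For each of 9 arrays the deposited table holds log2 values of 45101 probe sets. The log2 scale was read from the values (2.42 to 14.80). The authors' summarisation and normalization are not given in the sources used. Symbols came from the platform annotation, updated through a RefSeq table of GRCm38.p6, which 34741 of 34945 probe sets with 1 gene matched. A further 932 probe sets had several genes and 9211 were unnamed.

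Each gene was represented by its probe set with the highest mean over 9 arrays, giving 18193 genes. The test took the 13409 genes whose signal exceeded the array's 40th percentile on 3 or more arrays. Linear models were fitted with limma 3.58.1 in R 4.3.3 (lmFit, eBayes, group means, 6 residual and 3.63 prior degrees of freedom), two-sided, with Benjamini-Hochberg adjustment per comparison. With 3 mice a line, the smallest two-sided exact permutation p is 0.1. Background was the highest of 27 bacterial control probe sets per array, and "at least" folds are taken against it. The fit was tested on simulated data.

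Named genes were the 10 members, up to 4 genes per list with the smallest F-test p, and the 3 nearest genes per member. The members, the 20 other lists and these rules were chosen with earlier results of these data known. Alternatives covered scaling, probe set choice, filter, prior, covariates and single arrays.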

Additional observations from a re-analysis of the deposited data

How the results depend on the processing

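Over 27 log2 differences of the 9 genes and their alternatives, 517 of 537 values kept their side of the threshold, 12 lost the call and 8 gained it. Where either fit gave a call, 0 changed sign. Sign changes between values that were both uncalled were not counted, and some of these values did change sign. With single arrays left out, the number of the 9 genes called ran from 2 to 4 for 4T1 against 67NR (4 without 4T1 replicate 1, against 2), 5 to 6 for 66cl4 against 67NR, 5 to 6 for 4T1 against 66cl4 and 6 to 7 for the F-test. Over all genes the counts ran from 4429 to 5256, 3818 to 5213, 4614 to 5391 and 6732 to 7597 in the same order. The array file number as a covariate called 2661 genes between 4T1 and 67NR, and the hybridization controls 2151, against 5347. The cause was not tested. Neither covariate overlaps between 4T1 and 67NR arrays, so its part cannot be told apart from that of the line. The same 2 covariates left 2 of the 9 genes called in that comparison, and 4 and 5 in 66cl4 against 67NR, where they called 3782 and 3858 genes in all, against 4838. In 4T1 against 66cl4 they left 6 of the 9, and 4930 and 3870 genes, against 5538. A fit of only the 2 lines compared called 3, 6 and 6 of the 9 genes and 4896, 5333 and 4903 genes in 4T1 against 67NR, 66cl4 against 67NR and 4T1 against 66cl4. A filter at the 60th percentile left Adamts5 untested. Replicate numbers do not pair the arrays: same-numbered arrays of different lines had correlations of deviations of -0.11 to 0.16, and 3 of 9 arrays were closest to an array of their own number. With the number as a replicate block, 2, 5 and 6 of the 9 genes were called in 4T1 against 67NR, 66cl4 against 67NR and 4T1 against 66cl4, and 5057, 4503 and 5179 genes in all. The 1 call of the 9 genes it ended was Adam12 in 66cl4 against 67NR (-0.71, adjusted p = 0.0508). Arrays have no depth. Signals near background, such as Adamts5 in 67NR, understate folds.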

Other observations

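Within the 4T1 tumours, replicate 1 had the lowest value of its line for 7 of the 9 protease genes and replicate 2 the highest for 5. Within 67NR, replicate 1 was the highest for 6. The shares of all genes with these extremes were not computed, so nothing particular to the proteases is read from them. Among genes outside the 9, picked after their values were seen, Col1a1 had 11.84, 13.42 and 12.54, and Timp1 had 10.37, 11.68 and 11.68 in 4T1 replicates 1, 2 and 3. Others went the other way, with replicate 1 highest. Adamdec1 had 10.25, 7.42 and 8.61, and S100a8 had 11.43, 10.75 and 11.29.

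Some marker lists of further cell types also differed. Their counts stand against the 36.1% of all genes called in 66cl4 against 67NR, 39.9% in 4T1 against 67NR and 41.3% in 4T1 against 66cl4. Mast cell markers were lower in 66cl4 than in 67NR for 6 of 6 and in 4T1 than in 67NR for 5 of 6, with means of 10.18 to 10.41 on 67NR, 5.91 to 6.24 on 66cl4 and 5.56 to 5.94 on 4T1 arrays. Neutrophil markers were higher in 4T1 than in 66cl4 for 3 of 6. Epithelial markers were higher in 4T1 than in 67NR for 6 of 7 and in 66cl4 than in 67NR for 1 of 7. The 3 tested B cell markers and 4 tested skeletal muscle markers passed no test. Fabp4, the 1 adipocyte marker tested, was lower than in 67NR by -2.73 in 66cl4 and by -3.71 in 4T1 tumours.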
